A study of Mus musculus with 8 samples.

Results

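The genes described here encode proteins of the cytosolic ribosome, apart from Rps4l, which is annotated as a transcribed pseudogene. They were chosen by name, as the symbols beginning with Rpl or Rps followed by a number and at most a short suffix, and each gene was represented by its brightest probe well above background on at least 4 arrays. Of 80 matching symbols 78 were kept, 32 of the small subunit (Rps, with Rps4l included) and 46 of the large subunit (Rpl), among 25403 features tested. Rpl3l and Rpl39l, paralogues of Rpl3 and Rpl39, had 1 probe each, which was well above background on 0 arrays, and they were left out. The 78 genes kept were well above background on all 8 arrays, and 72 of them lay above the 90th percentile of level among the named genes.

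The ribosome joins amino acids into protein. Its small subunit reads the messenger RNA and its large subunit forms the peptide bond and lets the new chain leave through an exit tunnel. Ribosomal proteins are needed in matching amounts, and most of their messenger RNAs start with a C followed by a run of pyrimidines, the 5′ terminal oligopyrimidine tract, through which mTORC1 and the RNA-binding protein LARP1 control their translation. In the intestinal crypt, stem cells marked by Lgr5 divide often and feed the epithelium, which requires steady production of ribosomes.

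Lgr5-high intestinal stem cells of mice were profiled on 8 single-colour expression arrays, 4 per group. The 4 Irf2_AhcKO samples came from Irf2 fl/fl mice that carried the Ah-Cre recombinase and the Lgr5-EGFP-Ires-CreERT2 allele. The 4 control samples came from Irf2 fl/fl mice with the same Lgr5 allele and no Ah-Cre. Both groups received β-naphthoflavone, which switches on Ah-Cre, on 5 consecutive days, and cells were taken 1 month later. Control mice therefore shared the floxed gene, the reporter allele and the drug. The scanner data of control replicates 3 and 4 have names that mention Ah-Cre, so the genotype of those 2 samples is not settled. The design text gives both 4 independent mice per genotype and 2 biological replicates, so p-values measure only the spread between these samples. The sources used here do not give the age of the mice.

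No array had a saturated spot, and 61.4% to 69.8% of an array's spots were well above background. The arrays lay on 2 slides, with replicates 1 and 2 of both groups on slide 1 and replicates 3 and 4 on slide 2. Every level below is a log2 intensity relative to the array's 75th percentile, and every difference is Irf2_AhcKO minus control on that scale, fitted with the slide as a term. IRF2, the transcription factor whose gene was targeted, is known as a repressor of interferon responses. Its 1 probe read 1.12, 1.096, 0.70 and 0.73 on the Irf2_AhcKO arrays, against 0.99, 0.55, 0.37 and 0.64 on the control arrays. That difference was 0.27 ± 0.12 (SE, limma adjusted p = 0.429), so the probe was not lower in the samples labelled Irf2_AhcKO. The sources used here do not say whether the probe lies in the deleted part, and the labels are used as they stand. Lgr5, the marker used for the sort, was well above background on all 8 arrays, as was Epcam, a defining marker of epithelium.

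The annotated start sites of the genes at both ends of the ranking were searched for the tract. A RefSeq promoter table of assembly GRCm38.p6 had an entry for 58 of the 78 genes. The sequences below are those of the 6 genes with an entry and the lowest differences, then of the 6 with an entry and the highest. Each holds the 15 bases before the annotated start and the first 15 bases of the transcript, on the strand of the gene. Capitals mark a tract, taken as a C within 3 bases of the annotated start followed by at least 4 further C or T bases. A sequence with no capitals had none by this definition. Transcripts that start elsewhere would be missed, so absence here does not show that the messenger RNA lacks a tract. The 6 genes of lowest difference lay at chr7:4792950-4792979 (Rpl28, plus strand), chr17:27635230-27635259 (Rps10, minus strand), chr1:72711245-72711274 (Rpl37a, plus strand), chr3:28805493-28805522 (Rpl22l1, plus strand), chr7:45718056-45718085 (Rpl18, plus strand) and chr3:90213634-90213663 (Rps27, minus strand).
Rpl28: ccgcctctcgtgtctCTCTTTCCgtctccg
Rps10: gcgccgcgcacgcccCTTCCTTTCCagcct
Rpl37a: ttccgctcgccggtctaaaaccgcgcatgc
Rpl22l1: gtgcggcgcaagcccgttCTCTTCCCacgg
Rpl18: tgcgtctcgcaggccgCTCTTTCCCCgccc
Rps27: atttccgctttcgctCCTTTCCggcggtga

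The 6 genes of highest difference lay at chr7:45128731-45128760 (Rpl13a, minus strand), chr7:99483695-99483724 (Rps3, minus strand), chr2:180257364-180257393 (Rps21, plus strand), chr11:68901551-68901580 (Rpl26, plus strand), chr5:107900513-107900542 (Rpl5, plus strand) and chr4:152325711-152325740 (Rpl22, plus strand).
Rpl13a: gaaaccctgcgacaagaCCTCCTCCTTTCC
Rps3: cttgcaagggtcgccgcgctgcgcggcgtc
Rps21: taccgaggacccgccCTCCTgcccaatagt
Rpl26: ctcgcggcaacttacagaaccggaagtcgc
Rpl5: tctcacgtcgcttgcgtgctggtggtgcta
Rpl22: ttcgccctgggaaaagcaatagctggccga

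Over the family, 25 of 58 genes (43.1%) held such a tract at an annotated start. That compares with 13.4% of 26967 other genes and 13.5% of all 27025 genes with an entry. Only the strand of the gene was read, since the tract is a feature of the messenger RNA. Each gene was counted once, as holding a tract if any of its listed starts did. Of the genes printed, Rps21 and Rpl22 had 2 listed starts, and a start with a tract was shown where one existed. The share was 10 of 23 among small subunit genes and 15 of 35 among large subunit genes. Genes with a tract had a median difference of -0.135, with 24 of 25 below 0. Genes without one at the annotated start had a median difference of -0.101, with 32 of 33 below 0. Both classes thus lay below 0, and their ranges overlapped, from -0.271 to 0.0235 with a tract and from -0.237 to 0.0111 without.

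The messenger RNAs of the cytosolic ribosome were slightly lower in Irf2_AhcKO stem cells as a family, while no gene passed the test alone. The difference was below 0 for 76 of 78 genes (97.4%), against 50.5% of all features and 55.3% of all named genes. With quantile normalization of the arrays it was below 0 for 66. All genes were read on the same arrays, so their signs are not independent and these counts are a description. The shift of the family as a whole was not tested. Their median was -0.11 (-7.63%), the quartiles were -0.16 and -0.07, and the whole range ran from -0.31 to 0.02. Small and large subunits did alike, with medians of -0.12 (31 of 32 below 0) and -0.10 (45 of 46 below 0). The median over all features was -0.0024, and over all named genes -0.02. With limma, 0 of 78 genes had an adjusted p under 0.05, where 0.0984% of all features did, 14 of them higher (0.0551%) and 11 lower (0.0433%). The smallest adjusted p in the family was 0.340, shared by Rps13, Rps10 and Rpl22l1. Without adjustment, 7 genes were lower at p under 0.05, against 5.74% of all features, and 0 were higher, against 5.98%. With the replicate number as a block in place of the slide, 9 were lower at that threshold, against 6.35% of all features. The count also moved with the processing, to 25 with normexp background correction, 15 with median scaling, 1 without the slide term, 1 on slide 1 alone and 0 on slide 2 alone. That count of 7 rests on few arrays: it was 2 without Irf2_AhcKO replicate 4, 3 without Irf2_AhcKO replicate 2, control replicate 1 or control replicate 3, and 12 without Irf2_AhcKO replicate 1. In RNA from sorted bulk samples, fewer cells of a type and less RNA per cell cannot be told apart.

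**Figure D1:**
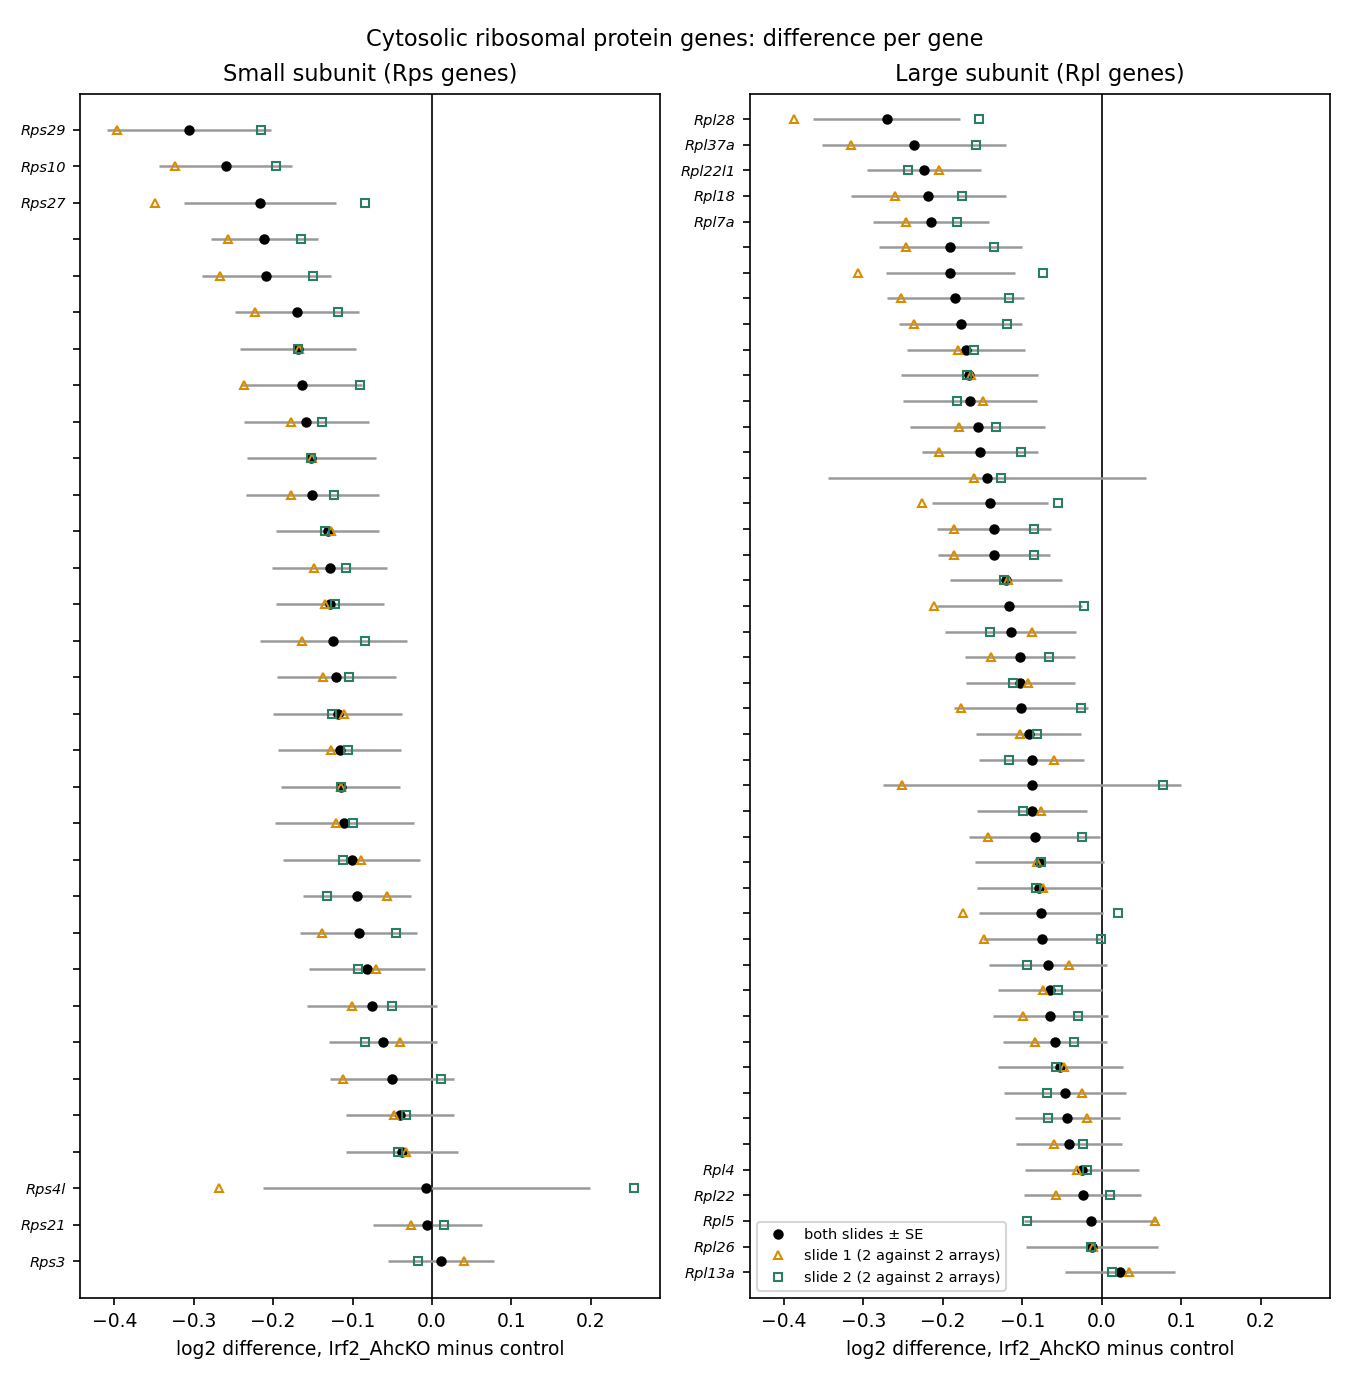
Log2 difference, Irf2_AhcKO minus control, for each of the 32 small subunit and 46 large subunit genes (black points, bars ± SE), with the difference on slide 1 (triangles) and slide 2 (squares) alone; the 8 lowest and 8 highest genes are named. Of the 78 points 76 lie below 0, from -0.31 for Rps29 to 0.02 for Rpl13a.

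The same sign appeared on both slides. The median difference was -0.14 on slide 1, with 75 genes below 0, and -0.09 on slide 2, with 71 below 0. On both slides at once 69 genes (88.5%) were below 0, against 31.7% of all features. For 34 genes (43.6%) the 2 Irf2_AhcKO values lay below the 2 control values on each slide, where 7.09% of all features did so, and 0 genes lay the opposite way, where 5.74% of all features did. Ignoring the slide, the 4 Irf2_AhcKO values lay below the 4 control values for 10 genes (12.8%), against 2.11% of all features, and above them for 0, against 1.74%. Among those 10 were Rps10, Rps27 and Rpl7a, and also Rps13, Rps19, Rpl13, Rpl23, Rps18 and Rpl3, which were named after their values were seen. A test of whether the difference itself varied with the slide called 0 features of 25403 (limma), 1091 at an unadjusted p under 0.05, of which 0 were ribosomal protein genes.

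Single arrays contributed unequally. The median level of the 78 genes was 6.47, 6.38, 6.44 and 6.37 on the Irf2_AhcKO arrays (6.42 ± 0.05, SD, n = 4), against 6.60, 6.54, 6.53 and 6.47 on the control arrays (6.53 ± 0.05, SD, n = 4). The highest Irf2_AhcKO array and the lowest control array both stood at 6.47, so the groups adjoined. Compared with the mean of its slide, Irf2_AhcKO replicate 2 held 75 of 78 genes below and replicate 4 held 74, whereas replicates 1 and 3 held 38 and 48. Among the controls, replicates 1 and 3 held 5 and 7 genes below and replicates 2 and 4 held 22 and 28. All 8 pairings of an Irf2_AhcKO array with a control array of the same slide nevertheless gave a median below 0, from -0.26 to -0.04, with 50 to 75 of 78 genes lower.

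**Figure D2:**
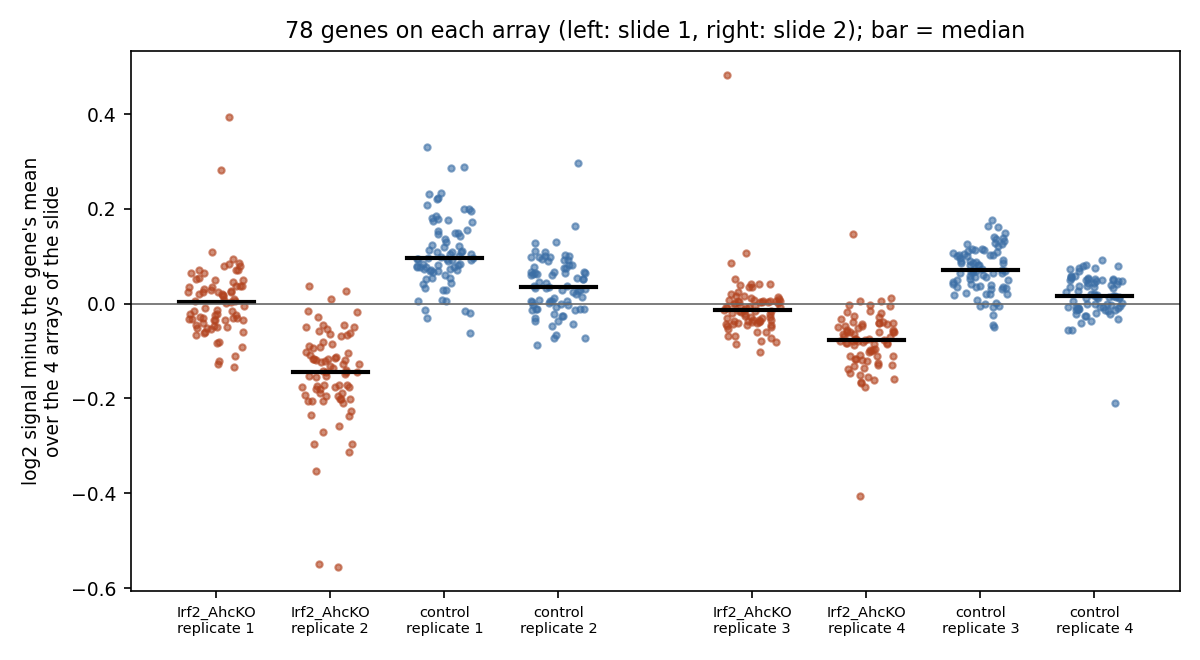
Log2 signal of the 78 genes on each array minus the gene's mean over the 4 arrays of that slide; points are genes and bars medians, with slide 1 on the left and slide 2 on the right. Irf2_AhcKO replicates 2 and 4 lie lowest (medians -0.14 and -0.08) and control replicates 1 and 3 highest (0.10 and 0.07).

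Ribosomal protein genes are among the brightest on the array, so other bright genes were set beside them. These were the 389 other named genes whose mean level reached 5.64, the lower quartile of the family. Their median difference was 0.0010, with 191 of 389 (49.1%) below 0. On each array, the family's median minus that of the other bright genes was -0.40, -0.40, -0.40 and -0.47 in Irf2_AhcKO, against -0.23, -0.29, -0.38 and -0.37 in control. The groups did not overlap on this measure. The spread between arrays of a group on a slide was like that of the other bright genes, with a median SD of 0.074 against 0.080.

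Within classes of equal brightness the family also lay lower than the other named genes. From level 3 to 5, 5 of 5 ribosomal protein genes were below 0 (median -0.07), against 61.7% of 1390 others (median -0.04). From level 5 to 6, 16 of 17 were below 0 (median -0.14), against 57.6% of 243 others (median -0.02). From level 6 to 7 the figures were 30 of 31 (-0.12), against 55.3% of 150 others (-0.01). At level 7 and above they were 20 of 20 (-0.11), against 42% of 174 others (0.0095). Across the 78 genes the mean level and the difference had a Pearson r of -0.03, given as a description of values that share the same 8 arrays.

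**Figure D3:**
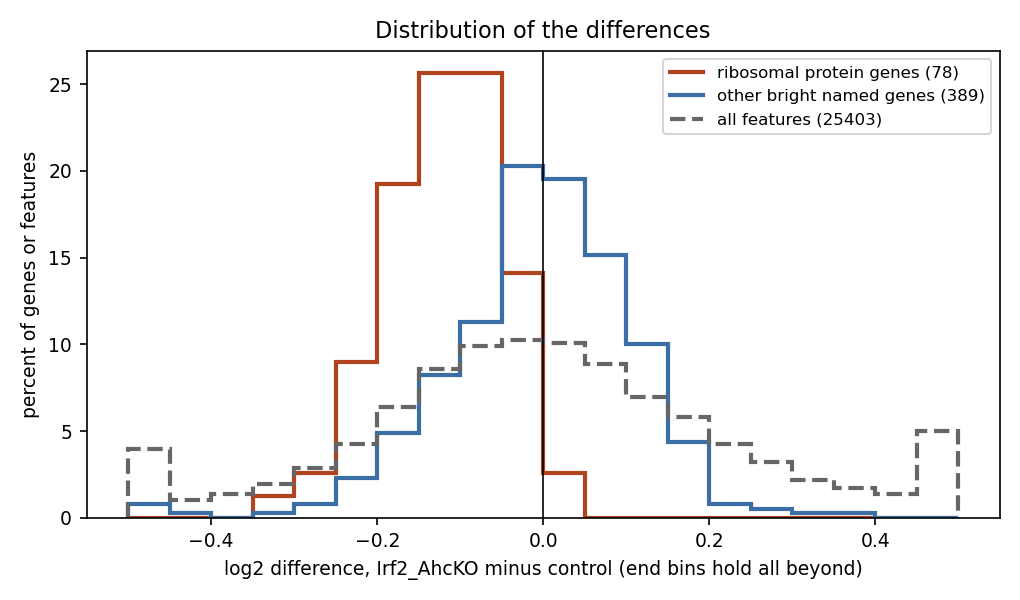
Distribution of the log2 differences, Irf2_AhcKO minus control, for the 78 ribosomal protein genes, the 389 other bright named genes and all 25403 features, as percent of each set. The family's median lies at -0.11, and those of the other 2 sets at 0.0010 and -0.0024.

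Among small subunit proteins, Rps29 had the lowest difference. RPS29 is a small zinc-binding protein of the subunit's head. Its level was 7.64, 7.41, 7.50 and 7.36 in Irf2_AhcKO, against 8.05, 7.79, 7.71 and 7.58 in control. The groups overlapped only through Irf2_AhcKO replicate 1 and control replicate 4, which were on different slides. The difference was -0.31 ± 0.10 (SE, limma adjusted p = 0.359). All 3 of its probes were lower, by differences from -0.31 to -0.13.

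Rps10 encodes a protein of the small subunit near the entry of the messenger RNA. It read 6.23, 6.04, 6.28 and 6.17 in Irf2_AhcKO, against 6.53, 6.39, 6.45 and 6.40 in control, with every Irf2_AhcKO value below every control value. Its difference was -0.26 ± 0.08 (SE, limma adjusted p = 0.340). Rps13 was the most even of the low genes. Its level was 6.64, 6.55, 6.66 and 6.66 in Irf2_AhcKO, against 6.85, 6.85, 6.83 and 6.82 in control, and the groups were apart. A second Rps13 probe gave -0.17, beside -0.21 ± 0.07 (SE) for the brightest. Rps27, a zinc-finger protein of the small subunit, had a difference of -0.22 ± 0.10 (SE), which was -0.35 on slide 1 and -0.08 on slide 2.

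Among large subunit proteins, Rpl28, Rpl37a, Rpl22l1, Rpl18 and Rpl7a lay lowest. Rpl28 read 5.54, 5.33, 5.96 and 5.79 in Irf2_AhcKO, against 5.85, 5.79, 6.05 and 6.001 in control. Irf2_AhcKO was lower within each slide, and the groups overlapped across slides. Slide 1 alone gave -0.39 and slide 2 alone -0.15, and both together -0.27 ± 0.09 (SE, limma adjusted p = 0.361). Rpl7a read 5.37, 5.23, 5.48 and 5.39 in Irf2_AhcKO, against 5.57, 5.52, 5.66 and 5.57 in control, with no overlap. All 4 Rpl7a probes were lower, the brightest by a difference of -0.21 ± 0.07 (SE, limma adjusted p = 0.361). Rpl37a (-0.24 ± 0.12, SE) and Rpl18 (-0.22 ± 0.10, SE) had overlapping groups.

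At the other end, Rpl13a and Rps3 were the only genes of the family with a difference above 0 in this scaling. RPL13A is known in human monocytes as a protein that leaves the ribosome after interferon-γ and silences translation of inflammatory messenger RNAs. Rpl13a read 5.45, 5.32, 4.93 and 4.93 in Irf2_AhcKO, against 5.31, 5.40, 4.92 and 4.92 in control, and the groups overlapped on slide 1, while both Irf2_AhcKO values were slightly above both control values on slide 2. Its difference was 0.02 ± 0.07 (SE, limma adjusted p = 0.906), and its 2 other probes gave -0.11 and -0.14. RPS3 lines the path by which the messenger RNA enters. Rps3 read 6.81, 6.84, 6.78 and 6.71 in Irf2_AhcKO, against 6.81, 6.76, 6.75 and 6.78 in control, a difference of 0.01 ± 0.07 (SE, limma adjusted p = 0.958). Rps21, Rps4l, Rpl26, Rpl5, Rpl22 and Rpl4 followed, with differences from -0.02 to -0.0058. RPL5 binds a small ribosomal RNA and, outside the ribosome, the p53 regulator MDM2. The Rpl5 probe differed by 0.07 on slide 1 and by -0.09 on slide 2. RPL26 sits at the exit of the tunnel. The brightest Rpl26 probe gave -0.01, whereas its 2 dimmer probes gave -0.20 and -0.21, so the place of Rpl26 in the order depends on the probe.

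Probes of 1 gene mostly ran the same way. Of 160 kept probes of the family 147 were lower. Among the 50 genes with several probes, all probes were lower for 38, signs were mixed for 12, and 0 had all probes higher. The 82 probes that were not the brightest of their gene had a median difference of -0.09, with 71 lower.

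**Figure D4:**
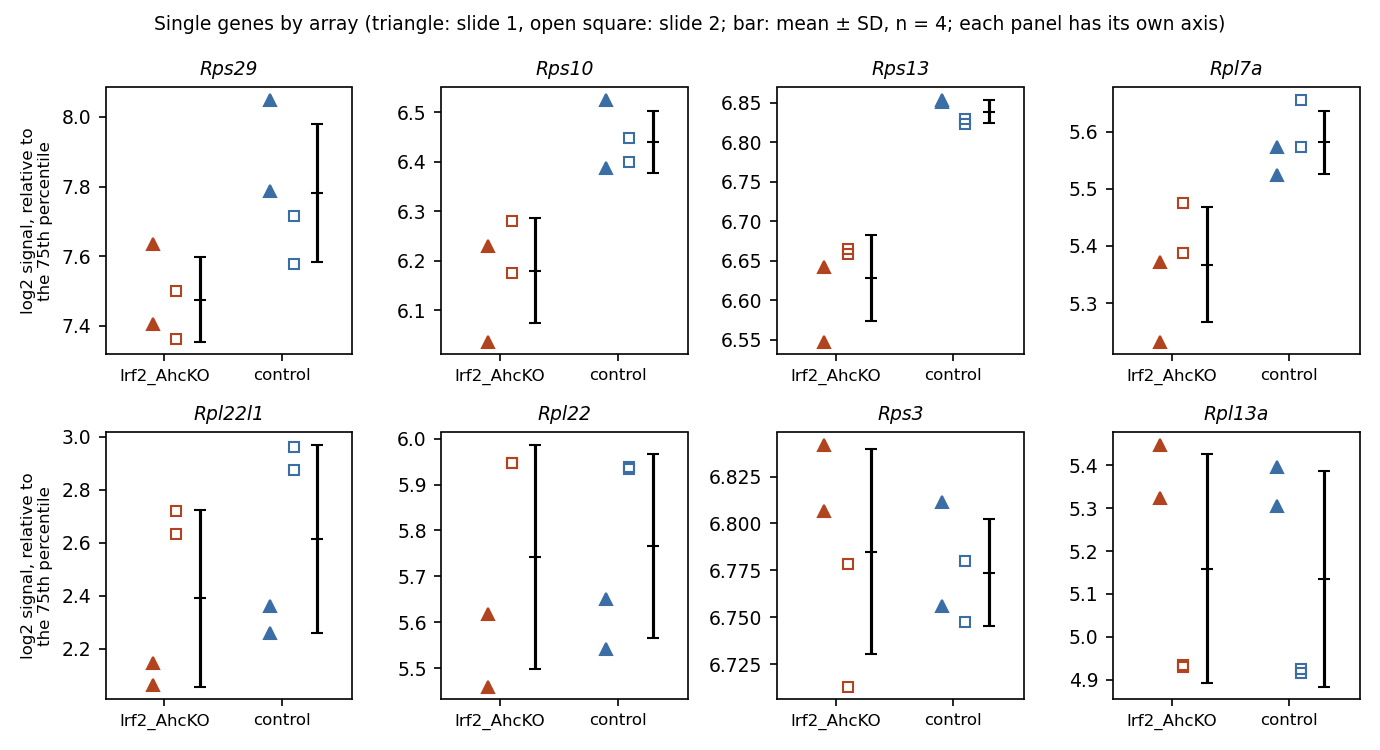
Log2 level of 8 ribosomal protein genes on each array, Irf2_AhcKO left and control right (triangles slide 1, open squares slide 2, bars mean ± SD, n = 4). Each panel has its own axis: the groups are apart for Rps10, Rps13 and Rpl7a and overlap for Rps29, Rpl22l1, Rpl22, Rps3 and Rpl13a.

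Several members are paralogues of a core ribosomal protein. RPL22L1 can take the place of RPL22, and in mice RPL22 represses Rpl22l1. Rpl22l1 read 2.15, 2.06, 2.72 and 2.63 in Irf2_AhcKO, against 2.36, 2.26, 2.96 and 2.88 in control, and was lower within each slide. Its difference was -0.22 ± 0.07 (SE, limma adjusted p = 0.340). Rpl22 read 5.62, 5.46, 5.95 and 5.95 in Irf2_AhcKO, against 5.65, 5.54, 5.94 and 5.93 in control, a difference of -0.02 ± 0.07 (SE, limma adjusted p = 0.911). The difference between the 2 genes was not tested.

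RPS27L is a paralogue of RPS27 that p53 induces. Rps27l had a difference of -0.13 ± 0.07 (SE) and one of the 3 smallest spreads of the family, an SD of 0.032 within group and slide. Rpl35 (0.031) and Rpl21 (0.032) were the other 2. Rpl32l differed by -0.10 ± 0.07 (SE) and Rpl32 by -0.07 ± 0.07 (SE). The largest spreads belonged to the paralogues Rpl7l1 (SD 0.359), Rps4l (0.322) and Rpl10l (0.314). RPL10L replaces RPL10 in male meiosis in mice, and its probe lay at -3.28 ± 0.36 in Irf2_AhcKO and -3.19 ± 0.19 in control (SD, n = 4 each), with a difference of -0.09 ± 0.19 (SE). Rpl10 differed by -0.06 ± 0.07 (SE). Rpl7l1 differed by -0.14 ± 0.20 (SE) and Rpl7 by -0.04 ± 0.07 (SE). Rps4l is annotated as a transcribed pseudogene. It differed by -0.27 on slide 1 and 0.25 on slide 2, while Rps4x, its coding relative, gave -0.07 and -0.09. The genome holds many processed copies of ribosomal protein genes, and probes may take up signal from a copy. The 3 named ribosomal protein pseudogenes that were measured had differences below 0, with a median of -0.11.

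The slide moved single genes further than the group did. Between slide 2 and slide 1, 23 of 78 genes (29.5%) passed limma's adjusted threshold, against 35.5% of all features, 10 of them higher on slide 2 (all features 12%) and 13 lower (all features 23.5%). The largest increases on slide 2 were those of Rps14 (0.67, limma adjusted p = 0.0011) and Rpl22l1 (0.59, limma adjusted p = 0.00131). The largest decreases were those of Rpl15 (-0.61), Rpl24 (-0.49), Rps25 (-0.48) and Rpl13a (-0.44), with limma adjusted p from 0.00111 to 0.00447. Rps14 read 5.28 and 5.15 in Irf2_AhcKO and 5.51 and 5.36 in control on slide 1. On slide 2 it read 5.99 and 5.89 in Irf2_AhcKO and 6.04 and 6.07 in control. The slides differ in both directions within the family, unlike the groups. Slide and the mice it held cannot be told apart.

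Ribosomal proteins whose symbols fall outside the naming rule gave similar values. Of 8, 7 were below 0, with a median of -0.12. Fau, which encodes a ribosomal protein fused to a ubiquitin-like one, read 8.45, 8.58, 8.55 and 8.41 in Irf2_AhcKO, against 8.83, 8.74, 8.69 and 8.57 in control, a difference of -0.21 ± 0.08 (SE, limma adjusted p = 0.398). The stalk proteins Rplp1 and Rplp0 differed by -0.29 ± 0.11 and -0.12 ± 0.07 (SE), and Rack1, a signalling scaffold on the small subunit, by -0.12 ± 0.07 (SE). Proteins of the mitochondrial ribosome, a separate machine that translates mitochondrial messages, had a median of -0.10. Of 77, 63 were below 0 (81.8%), against 55.3% of all named genes. The median was -0.14 on slide 1 and -0.04 on slide 2, and 52 genes (67.5%) were below 0 on both, against 35.2% of all named genes. That list was added after values were seen.

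Other genes of ribosome production and translation mostly lay below 0 as well. With limma 0 of them passed the adjusted threshold, where 0.0984% of all features did. Of all named genes 55.3% lay below 0, with a median of -0.02. Of 66 ribosome biogenesis genes 55 were below 0 (median -0.08), with 1 lower (1.52%) and 1 higher at an unadjusted p under 0.05. Of all features 5.74% were lower and 5.98% higher at that threshold. On slide 1, 52 of the 66 were below 0 (median -0.12), and on slide 2, 40 (median -0.04). On both slides at once 33 (50%) were below 0, against 35.2% of all named genes. Gtpbp4, a GTPase of large subunit assembly, differed by -0.27 ± 0.07 (SE, limma adjusted p = 0.291). Utp18, of the machinery that processes small subunit RNA, ran the other way at 0.54 ± 0.09 (SE, limma adjusted p = 0.125), from a dim probe. Rrs1 and Nop10, also of ribosome assembly, gave -0.32 ± 0.14 and -0.16 ± 0.07 (SE). Of 42 translation factors 35 were below 0 (median -0.09), with 0 at an unadjusted p under 0.05. Below 0 on both slides were 29 of them (69%), with medians of -0.10 on slide 1 and -0.04 on slide 2. Eef1g, a subunit of the elongation factor that recharges eEF1A, read 5.92, 5.90, 5.90 and 5.84 in Irf2_AhcKO, against 6.12, 5.99, 6.17 and 5.99 in control, with the groups apart. Eif3i (-0.17 ± 0.08, SE) and Eef1b2 (-0.15 ± 0.07, SE) had no overlap between groups either, and Eef1e1 gave -0.26 ± 0.14 (SE). Of the 42 translation factors, 4 (9.52%) had all Irf2_AhcKO values below all control values, against 2.11% of all features. The genes named here were picked by smallest unadjusted p, which favours groups that are apart.

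**Figure D5:**
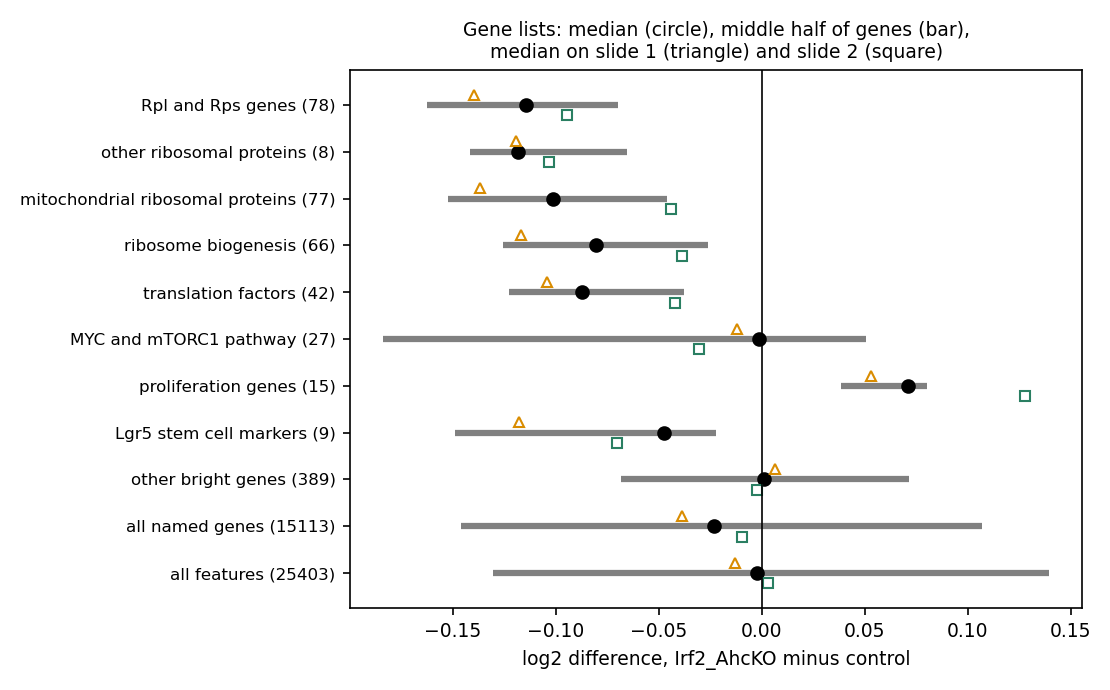
Median log2 difference, Irf2_AhcKO minus control, of selected gene lists (circle), with the quartiles of the genes (bar) and the medians on slide 1 (triangle) and slide 2 (square). The enterocyte, goblet, Paneth, epithelial, leukocyte and pseudogene lists are not drawn. Of these the enterocyte and goblet lists had lower medians, -0.78 and -0.17. The lists of ribosome and translation genes have medians from -0.12 to -0.08, and the proliferation genes one of 0.07.

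A list of growth control genes, mainly of the MYC and mTORC1 pathways, had a median near 0. It also held the p53 gene Trp53 and its regulators Mdm2 and Mdm4. Of 27, 15 were below 0, with a median of -0.0013. At an unadjusted p under 0.05, 5 (18.5%) were lower, against 5.74% of all features, and 0 were higher, against 5.98%. Mycn, a member of the MYC family, read 0.13, -0.29, 0.25 and -0.41 in Irf2_AhcKO, against 1.36, 1.19, 0.29 and 0.94 in control. The groups were apart, with Irf2_AhcKO replicate 3 close to control replicate 3, and the difference was -1.03 ± 0.24 (SE, limma adjusted p = 0.220). Max, the partner of MYC proteins, differed by -0.25 ± 0.08 (SE, limma adjusted p = 0.336), and Eef2k, the kinase that restrains elongation, by -0.31 ± 0.09 (SE, limma adjusted p = 0.307). Mxd4, a MYC antagonist, gave -0.66 ± 0.25 (SE) from a dim probe that was well above background on 2 of 4 Irf2_AhcKO arrays.

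Markers of cell types were read beside the family, and their part in its shift was not tested. Of 15 proliferation genes 1 was below 0, with a median of 0.07 and a summed log2 level of 7.92 to 8.09 in Irf2_AhcKO and 7.85 to 7.96 in control. Of 9 measured stem cell markers 8 were below 0 (median -0.047), and their summed level was 6.84 to 6.97 in Irf2_AhcKO and 6.88 to 7.05 in control. Of 12 enterocyte markers 11 were below 0 (median -0.78), 7 of them (58.3%) at an unadjusted p under 0.05, against 5.74% of all features, and 1, the glucose transporter Slc5a1, was higher at that threshold (0.38). Their summed level was 6.26 to 6.58 in Irf2_AhcKO and 6.70 to 10.54 in control. The highest of those control values came from replicate 4, on which Sis, the brush border sucrase, read 10.42. On control replicates 1, 2 and 3 Sis read -1.74, -1.66 and -0.79, and the summed enterocyte level was 6.70 to 6.99. The 8 goblet cell markers measured had a median of -0.17 with 8 below 0, and a summed level of 7.24 to 7.76 in Irf2_AhcKO and 7.36 to 7.66 in control. The 4 Paneth cell markers measured had a median of 0.09 with 1 below 0, and a summed level of 5.67 to 6.77 in Irf2_AhcKO and 5.92 to 6.45 in control. Of 8 epithelial markers 5 were below 0 (median -0.06), and their summed level was 7.27 to 7.51 in Irf2_AhcKO and 7.25 to 7.69 in control. Of 8 leukocyte markers 4 were below 0 (median 0.0077), with a summed level of 6.64 to 8.01 in Irf2_AhcKO and 6.67 to 7.94 in control. Itgam made up most of that sum, at 6.58 to 7.98 in Irf2_AhcKO and 6.62 to 7.92 in control. Cd79b, a B cell marker well above background on 4 Irf2_AhcKO and 2 control arrays, was higher by 1.33 (limma adjusted p = 0.190), with the groups apart. None of these markers passed limma's adjusted threshold, where 0.0984% of all features did.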

How the data were processed

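RNA of 4 Irf2_AhcKO and 4 control samples was amplified from 20 ng, labelled with Cy3 and hybridised to Agilent 1-colour arrays, per the labels' protocols. The deposited scanner files hold a background-subtracted spot intensity made by Agilent Feature Extraction 11.5.1.1, according to the submitters' processing notes and the file headers. In the authors' deposited table that intensity is multiplied by a factor of 6.41 to 6.90 per array, with no log and no centring (column medians 207 to 246). The sources used here do not say how that factor was chosen. From the authors' intensity, log2 values were computed here and set relative to the 75th percentile of each array's 59305 spots that are not controls. Replicate spots were averaged, outlier spots left out. A probe had to be well above background on 4 or more arrays, and the brightest such probe stood for its symbol. Of 55681 probes, 28331 were named through their accession and a RefSeq gene table (GRCm38.p6), and other features were tested unnamed.

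All 25403 features were fitted with limma 3.58.1 in R 4.3.3 (group and slide, two-sided, Benjamini-Hochberg, threshold 0.05). The fit was also run on simulated data, with changes much larger than the family's median difference. Noise was drawn independently for each feature. That run does not show whether a small shift shared by many genes would be found. The deviations of same-numbered arrays from their group means correlated at 0.459 to 0.533 across features. Such a deviation also holds the slide difference, and same-numbered arrays shared a slide. The correlation therefore cannot show pairs within a slide. A fit with the number as a block was made as an alternative. No label gives a reason for such pairs, and replicates 1 and 2 shared slide 1 and replicates 3 and 4 slide 2. Other alternatives were normexp with an offset of 50 (on median signals, since mean signals are not in the files used here), quantile and median scaling, other filters, probe means, single slides, the deposited table and leaving out each array. Precision is limited by how many arrays there are.

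The members and lists were chosen with earlier results of these data known. The rule for named genes takes Irf2, the 8 genes of highest and 8 of lowest difference, the 3 of largest and 3 of smallest spread, the 4 of largest slide difference each way, paralogues ending in l or l1 with their partners, and up to 4 genes per list by unadjusted p. Genes apart between groups, and Sis, Slc5a1, Itgam, Cd79b, Lgr5 and Epcam, were named after values were seen. Some genes under this rule are not reported here by name; counts and medians include them.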

Additional observations from a re-analysis of the deposited data

Results flagged for a closer look

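Array levels of the named genes and medians of the lists were searched, in each group of 4 arrays, for an array far from the other 3. Both groups together made 122 searches. Chance flags about 1 in 20 such searches, and 2 values were flagged, neither of them of a ribosomal protein gene. The median level of the stem cell markers was 3.34 on Irf2_AhcKO replicate 3, against 2.89 to 2.95 on the other Irf2_AhcKO arrays. The median level of the proliferation genes was 2.28 on the same array, against 2.57 to 2.61 on the others.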

How the results depend on the processing

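The number of ribosomal protein genes past limma's adjusted threshold was 0 in every alternative run. Their median difference stayed below 0 in all, from -0.14 on slide 1 alone to -0.08 with quantile normalization, and from -0.13 to -0.08 when 1 array was left out. The number of genes below 0 ranged from 66 (quantile normalization) to 77, and it was 72 with the median of the other bright genes subtracted, an alternative chosen after seeing the data. With the replicate block, 76 genes were below 0 with the same median of -0.11, 9 were lower at an unadjusted p under 0.05, and 0 of all features passed (3292 at an unadjusted p under 0.05), where 25 passed with the slide. The count over all features was 133 with normexp, 46 for probes well above background on all 8 arrays, 7 with no filter on dim probes, 0 on slide 1 alone, 0 on slide 2 alone and 0 to 25 when 1 array was left out. The 7 ribosomal protein genes lower at an unadjusted p under 0.05 became 25 with normexp, 15 with median scaling, 1 without the slide term, 1 on slide 1 alone, 0 on slide 2 alone and 2 to 12 when 1 array was left out. The cause was not tested. Between slides, 14 to 21 ribosomal protein genes passed when 1 array was left out, 14 of them without Irf2_AhcKO replicate 4. Of 640 values of 32 named ribosomal protein genes under these alternatives, 43 had the opposite sign, over 12 genes; 0 of them turned a called value. Genes near 0, Rps21, Rps3, Rps4l, Rpl26, Rpl5 and Rpl22, changed sign most often. Dim probes and the 4 arrays per group limit what could be detected.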
